A study of Mus musculus with 2 samples.

Results

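Genes for platelet-derived growth factors (PDGF), vascular endothelial growth factors (VEGF) and their receptors were measured in BV2, a mouse line of immortalized microglia, which are the macrophages that live in brain tissue. The 10 genes were chosen by name, with no threshold on their values, from 19938 genes with a transcript cluster of their own on the array. They are the ligand genes Pdgfa, Pdgfb, Pdgfc, Pdgfd, Vegfa, Vegfb and Vegfc and the receptor genes Pdgfra, Pdgfrb and Flt1. The cells were plated in DMEM/F12, the nutrient-rich medium, and a day later received either DMEM/F12 again or DMEM, the standard medium, for a further day. Both media contained fetal bovine serum and antibiotics. The DMEM culture thus had a change of medium type, and the DMEM/F12 culture only fresh medium of the same type. Total RNA of 1 culture in DMEM/F12 and 1 culture in DMEM was hybridized to 1 Affymetrix Mouse Gene 1.0 ST array each. There are no replicates and hence no p-values, and each difference compares these 2 cultures. In RNA of a whole culture, more cells expressing a gene and more RNA per cell cannot be told apart.

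PDGF and VEGF proteins are secreted dimers of a shared fold, held by a knot of cysteines, that bind receptor tyrosine kinases on other cells or on the cell that released them. PDGF-A and PDGF-C act through the alpha receptor, PDGF-D mainly through the beta receptor, and PDGF-B through either. In brain the alpha receptor is known as a marker of oligodendrocyte progenitors and the beta receptor as a marker of pericytes, the mural cells of capillaries. VEGF-A, the main angiogenic factor, signals in endothelium through KDR and binds FLT1 as well, a receptor that monocytes and macrophages also carry. FLT1 is the receptor of VEGF-B too, whereas VEGF-C acts on lymphatic endothelium through FLT4.

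Each value is a log2 expression value as deposited, with 2 decimals, and differences were taken as DMEM/F12 minus DMEM, so rounding alone can shift a difference by up to 0.01. Each of the 10 genes is measured by 1 transcript cluster, a group of probes that together cover a gene. Values of different genes come from different probes and were not compared with each other. Background was the 95th percentile of 1248 clusters for receptor genes of smell, pheromone sensing and taste, a log2 value of 4.17 in DMEM/F12 and 4.15 in DMEM. By this limit 7 of the 10 genes were above background on both arrays, and Pdgfd, Pdgfrb and Vegfc were above it on neither. Of all 19938 genes, 13225 were above background on at least 1 array.

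Macrophage markers were well measured on both arrays. Here and in the lists below, a gene counts as above background when it is so on at least 1 array, through any of its clusters. Of 12 markers of microglia and macrophages 11 were above background, among them Itgam, the CD11b integrin, with 7.80 in DMEM/F12 and 7.79 in DMEM. At least 1.2-fold higher were 2 of the 12, against 11.2% of all genes. These were Trem2, a microglial receptor gene (9.63 in DMEM/F12, 9.23 in DMEM), and Itgb2, the CD18 integrin (8.04 in DMEM/F12, 7.69 in DMEM). At least 1.2-fold lower were 2 of the 12, Csf1r and Aif1, against 10.5% of all genes. Aif1, the IBA1 gene, was not above background, with 3.14 in DMEM/F12 and 3.53 in DMEM. Of 8 endothelial markers 4 were above background, but the defining genes Pecam1 (3.58 in DMEM/F12, 3.92 in DMEM) and Cdh5 (3.89 in DMEM/F12, 4.04 in DMEM) were not. Among the 4 were Vwf, the von Willebrand factor gene (6.28 in DMEM/F12, 6.03 in DMEM), and Cldn5, a tight junction gene (5.22 in DMEM/F12, 5.10 in DMEM). Of 8 markers of mural cells and fibroblasts 5 were above background, with a list median of 4.83 in DMEM/F12 and 4.65 in DMEM, and they included Cspg4 with 4.86 in DMEM/F12 and 4.62 in DMEM and Col1a1 with 5.93 in DMEM/F12 and 6.06 in DMEM. All 5 measured markers of the oligodendrocyte lineage were above background, but dim, with a list median of 4.60 in DMEM/F12 and 4.51 in DMEM. Of these, Sox10 had 4.92 in DMEM/F12 and 4.86 in DMEM. Of the 4 astrocyte markers 0 and of the 4 neuron markers 1 were above background. The part of other cell types in the values below was not tested.

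The clearest differences were in the PDGF ligand genes Pdgfb and Pdgfa. Pdgfb, which encodes the ligand of both PDGF receptors, had a log2 value of 7.28 in DMEM/F12 and 6.77 in DMEM, a difference of 0.51 or 1.42-fold. Pdgfa, which encodes the ligand of the alpha receptor, had 9.50 in DMEM/F12 and 9.11 in DMEM, a difference of 0.39 or 1.31-fold. Both genes lay more than 2 log2 units above background on each array, so neither difference rests on dim probes.

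Both differences were large beside those of most genes on these arrays. Of 13225 genes above background, 194 or 1.47% were higher in DMEM/F12 by at least as much as Pdgfb. For Pdgfa this share was 499 genes or 3.77%. The differences of the 2232 genes with a mean log2 value between 7 and 8 had an SD of 0.21, and those of the 541 genes between 9 and 10 an SD of 0.20. This spread is between genes and is no replicate error. Among the receptor clusters of olfaction and taste, 3.45% differed upward by as much as Pdgfb and 7.61% by as much as Pdgfa.

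The other PDGF ligand genes did not share this pattern at a measurable level. Pdgfc, whose product needs proteolysis before it binds the alpha receptor, had 4.24 in DMEM/F12 and 4.39 in DMEM, a difference of -0.15 between values only slightly above background. Of the genes above background, 23.4% were lower by at least that much. Pdgfd, whose product also needs proteolysis, had 2.48 in DMEM/F12 and 2.21 in DMEM. The difference of 0.27 lies wholly below background, from which the value stood at -1.69 log2 units in DMEM/F12 and -1.94 in DMEM.

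The PDGF receptor genes lay close to or below background in these cells. Pdgfra had 4.27 in DMEM/F12 and 4.32 in DMEM, only 0.10 above background in DMEM/F12 and 0.17 in DMEM, with a difference of -0.05. Pdgfrb had 3.98 in DMEM/F12 and 3.63 in DMEM, at -0.19 from background in DMEM/F12 and -0.52 in DMEM. Its nominal difference was 0.35 or 1.28-fold, and 10.2% of the olfactory and taste receptor clusters differed upward by as much. The ligand genes Pdgfa and Pdgfb were thus well above background where neither receptor gene was clearly so.

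**Figure D1:**
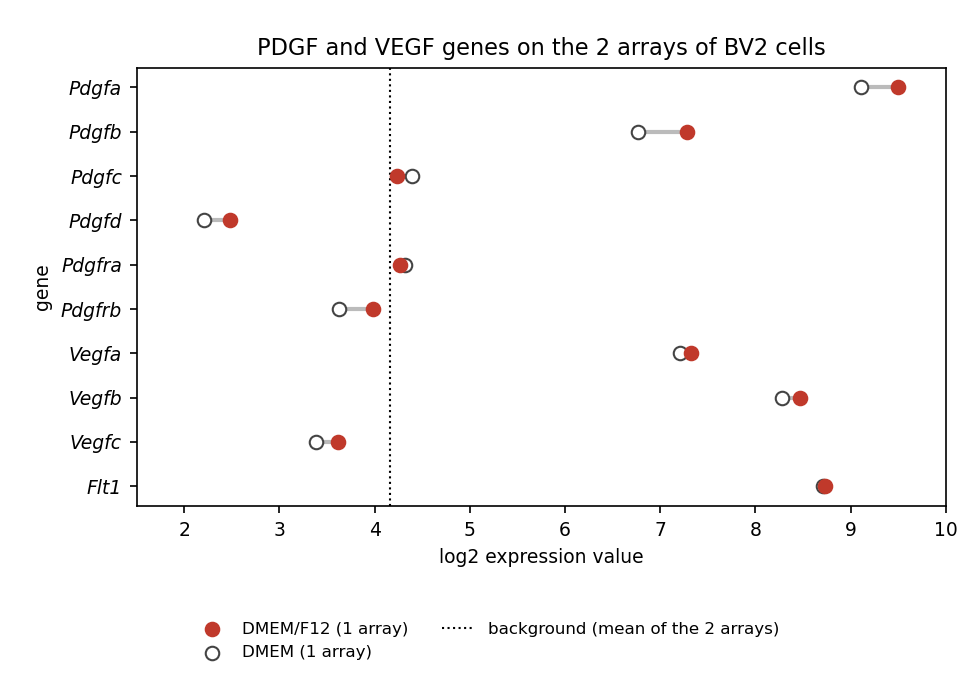
Log2 expression value (x axis) of each of the 10 PDGF and VEGF genes (y axis) on the DMEM/F12 array (red) and the DMEM array (open circles), 1 array each, with gray connecting lines and a dotted line at background. Pdgfb (7.28 in DMEM/F12, 6.77 in DMEM) and Pdgfa (9.50 in DMEM/F12, 9.11 in DMEM) show the widest gaps above background, while the circles of Flt1 (8.73 in DMEM/F12, 8.71 in DMEM) overlap.

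The VEGF genes differed less than Pdgfb and Pdgfa. Vegfb, a ligand of FLT1, had 8.47 in DMEM/F12 and 8.28 in DMEM, a difference of 0.19 or 1.14-fold. Vegfa had 7.32 in DMEM/F12 and 7.21 in DMEM, a difference of 0.11 or 1.08-fold. Both were well above background, but 18.2% of the genes above background were higher by at least as much as Vegfb and 30.6% by at least as much as Vegfa.

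Vegfc, the lymphatic growth factor, had 3.62 in DMEM/F12 and 3.39 in DMEM. Its difference of 0.23 came from values below background on both arrays. Flt1, the receptor gene that macrophages are known to express, had 8.73 in DMEM/F12 and 8.71 in DMEM, a difference of 0.02. Flt1 was 4.56 log2 units above background in either medium, the only receptor gene of the 10 clearly above it. A single cluster value does not separate the soluble from the membrane form of Flt1, nor the splice forms of Vegfa.

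Counted by direction, 8 of the 10 genes had a higher value in DMEM/F12 and 2 a lower one, where 47.2% of all genes were higher and 45.5% lower. The median difference of the 10 genes was 0.21, beside 0.00 over all genes. Over the 7 genes above background the median was 0.11, with 5 higher and 2 lower (48.5% and 47.4% of all genes above background). The 3 genes not above background had differences of 0.23, 0.27 and 0.35. At least 1.2-fold (0.26 on the log2 scale) higher were Pdgfa, Pdgfb, Pdgfd and Pdgfrb, or 4 of 10, against 11.2% of all genes. None of the 10 genes was at least 1.2-fold lower, against 10.5% of all genes. Among genes above background the count was 2 of 7, Pdgfa and Pdgfb, against 9.84%, and 0 of 7 were at least 1.2-fold lower, against 9.67%. At 1.5-fold higher there were 0 of 10, against 0.928% of all genes, and at 2-fold higher also 0, against 0.0602%.

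Split by family, 4 of the 6 PDGF genes and 0 of the 4 VEGF genes were at least 1.2-fold higher, against 11.2% of all genes. With so few genes, 0 of 4 lies near that share. The PDGF genes ranged from -0.15 to 0.51 with a median of 0.31, and the VEGF genes from 0.02 to 0.23 with a median of 0.15. Of these 4 PDGF genes, Pdgfd and Pdgfrb were below background. The difference between the families was not tested.

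**Figure D2:**
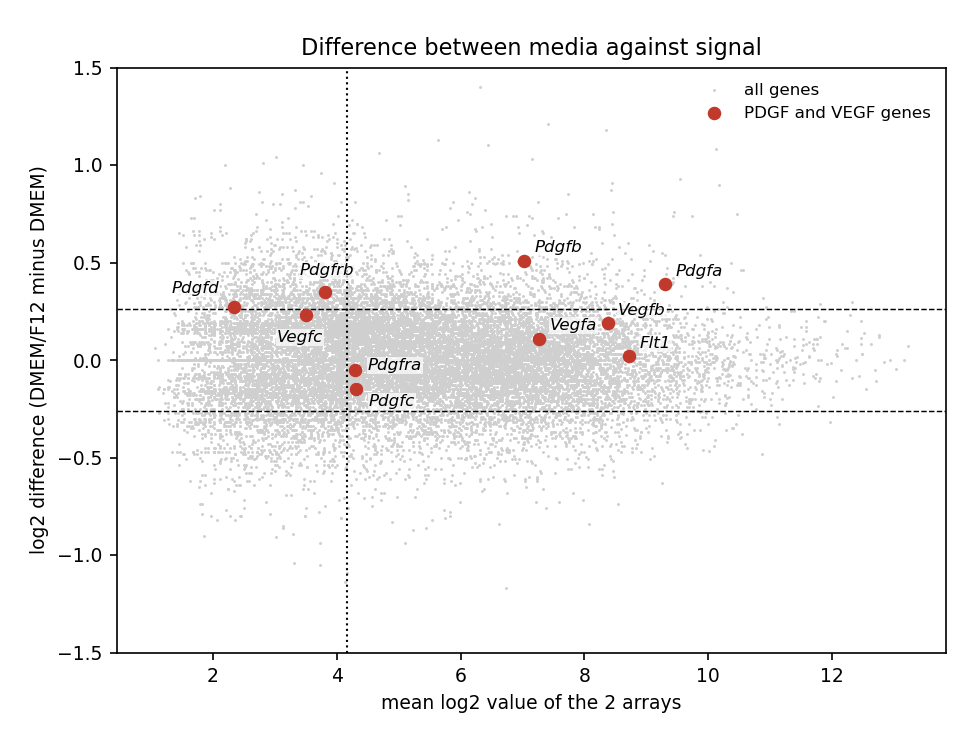
Difference in log2 value, DMEM/F12 minus DMEM (y axis), against mean log2 value over the arrays (x axis) for all 19938 genes (gray dots) and the 10 PDGF and VEGF genes (red). Dashed lines mark 1.2-fold and the dotted line marks background. Pdgfb (0.51) and Pdgfa (0.39) lie above the upper dashed line to the right of background, and Pdgfd (0.27) and Pdgfrb (0.35) lie above it to the left.

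The 250 bases before an annotated start are shown for Pdgfa, Vegfb and Vegfa, the ligand genes well above background that had a window in the RefSeq table of GRCm38.p6. The table held a window for 8 of the 10 genes and none for Pdgfb and Pdgfrb. Capitals mark GC boxes (GGGCGG, or CCGCCC on the other strand), which bind SP1 and related factors, and the core of the hypoxia-response element (ACGTG or GCGTG, or CACGT or CACGC on the other strand). Each sequence runs from 5′ to 3′ on the strand of its gene, the minus strand in each case.
Pdgfa (chr5:138994945-138995194): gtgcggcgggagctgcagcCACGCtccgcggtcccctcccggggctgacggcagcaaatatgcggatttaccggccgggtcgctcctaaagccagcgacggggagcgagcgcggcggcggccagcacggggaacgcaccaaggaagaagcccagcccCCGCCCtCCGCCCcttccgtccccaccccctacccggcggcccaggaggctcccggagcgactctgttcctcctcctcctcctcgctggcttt
Vegfb (chr19:6987652-6987901): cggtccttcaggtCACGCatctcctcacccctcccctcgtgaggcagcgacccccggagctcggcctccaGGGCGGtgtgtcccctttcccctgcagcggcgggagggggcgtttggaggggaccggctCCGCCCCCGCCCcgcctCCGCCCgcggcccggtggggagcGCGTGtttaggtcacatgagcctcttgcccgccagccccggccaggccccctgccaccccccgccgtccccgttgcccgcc
Vegfa (chr17:46032378-46032627): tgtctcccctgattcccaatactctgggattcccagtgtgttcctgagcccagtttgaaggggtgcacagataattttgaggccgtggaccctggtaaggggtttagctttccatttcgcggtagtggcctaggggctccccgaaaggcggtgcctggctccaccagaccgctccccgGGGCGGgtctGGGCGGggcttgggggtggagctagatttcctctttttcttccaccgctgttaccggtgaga
The Pdgfa and Vegfa windows each lie before 1 of 2 starts that the table lists for the gene, the upstream one in both cases. The Pdgfa window holds 2 GC boxes, 1 base apart, and 1 hypoxia core. The Vegfb window holds 4 GC boxes and 2 hypoxia cores, and the Vegfa window 2 GC boxes and 0 hypoxia cores. The window before the other start, not printed, holds 1 GC box and 0 hypoxia cores for Pdgfa and 1 GC box and 2 hypoxia cores for Vegfa, so the counts depend on the start taken. In the printed windows no GC box overlapped a hypoxia core. A GC box was found in 32.7% and a hypoxia core in 38.6% of 32851 windows of the same length. AP-1 sites (TGANTCA on either strand), found in 6.75% of windows, were absent from all 3 printed windows. G and C made up 72.4% of the Pdgfa window, 76.4% of the Vegfb window and 59.2% of the Vegfa window, where the median window had 52.4%. In the 3 printed windows, GC boxes thus lay before the gene with the larger difference (Pdgfa) and before Vegfb and Vegfa, with smaller ones. Pdgfb, with the largest difference of the 10 genes (0.51), had no window to look at. Of the windows of other genes, those of Vegfc and Flt1 held 2 and 3 GC boxes, and those of Pdgfc, Pdgfd and Pdgfra 0. These matches describe the letters of the windows, and binding was not measured. Bases outside the windows were not searched, so a count of 0 does not mean that a gene lacks such a site.

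Of 7 further genes of the family, only the neuropilins were above background. Nrp2, a co-receptor for VEGF-C and for semaphorins, had 8.20 in DMEM/F12 and 7.78 in DMEM, a difference of 0.42. Nrp1, a co-receptor for VEGF-A, had 7.45 in DMEM/F12 and 7.33 in DMEM, a difference of 0.12. The VEGF receptor genes of blood and lymphatic endothelium, Kdr and Flt4, were below background on both arrays. Kdr had 3.49 in DMEM/F12 and 3.67 in DMEM, and Flt4 had 3.42 in DMEM/F12 and 3.76 in DMEM. Also below background were Pgf, the placental growth factor gene (3.55 in DMEM/F12, 3.36 in DMEM), Vegfd (3.91 in DMEM/F12, 4.11 in DMEM) and Pdgfrl, a receptor-like gene (3.81 in DMEM/F12, 3.59 in DMEM). Of the genes for VEGF receptors and co-receptors, Flt1, Nrp1 and Nrp2 were therefore above background in BV2 cells. Among these, Nrp2 alone differed by 1.2-fold or more. Flt4 differed by -0.34, from values below background. Of the 7 further genes 1 was at least 1.2-fold higher (all genes 11.2%) and 1 at least 1.2-fold lower (all genes 10.5%).

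In the list of ligand processing and release, the 3 largest differences above background were all upward. Plau, the urokinase gene, whose product can activate PDGF-D, had 8.90 in DMEM/F12 and 7.99 in DMEM, a difference of 0.91. Adamts1, a metalloprotease gene whose product binds VEGF-A, had 7.32 in DMEM/F12 and 6.82 in DMEM, a difference of 0.50. Furin, the convertase that processes the precursors of PDGF-A, PDGF-B and VEGF-C, had 8.54 in DMEM/F12 and 8.10 in DMEM, a difference of 0.44. Of the 14 genes in this list 5 were at least 1.2-fold higher (against 11.2% of all genes) and 1 at least 1.2-fold lower (against 10.5%), with a median of 0.08. The other convertase genes in it, Pcsk5, Pcsk6 and Pcsk7, differed by 0.00, -0.07 and -0.11.

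Among proteins that bind these ligands outside the cell, A2m, whose product alpha-2-macroglobulin carries PDGF, had 4.39 in DMEM/F12 and 3.83 in DMEM, a difference of 0.56 in which the DMEM value lay below background. Lrp1, an endocytic receptor that also associates with the beta receptor, differed by 0.25 (9.45 in DMEM/F12, 9.20 in DMEM). Thbs1, a thrombospondin gene with antiangiogenic activity, differed by -0.34 (4.26 in DMEM/F12, 4.60 in DMEM). The 7 measured genes of this list had 1 at least 1.2-fold higher (against 11.2% of all genes) and 1 at least 1.2-fold lower (against 10.5%), shares close to those of all genes.

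Genes of signalling just below the receptors lay close between the media. Of 36 genes 31 had a cluster in the annotation used here. Of these 31, 15 were higher and 16 lower (47.2% and 45.5% of all genes), and the median was -0.01. At least 1.2-fold higher were 3 of 31, namely Rasa1, a negative regulator of RAS that docks on the beta receptor (0.42), Sos1, the RAS exchange factor (0.34), and Nck2, an adaptor (0.29), and 0 were at least 1.2-fold lower. These shares are 3 of 31 against 11.2% and 0 of 31 against 10.5% of all genes. Of the related receptor kinases, Csf1r, the receptor gene on which microglia depend for survival, had 8.47 in DMEM/F12 and 8.79 in DMEM, a difference of -0.32. Its ligand gene Csf1 differed by 0.12 (9.50 in DMEM/F12, 9.38 in DMEM) and Flt3 by 0.13 (4.46 in DMEM/F12, 4.33 in DMEM). Of the 7 genes in this list 1 was at least 1.2-fold higher (all genes 11.2%) and 1 at least 1.2-fold lower (all genes 10.5%), with a median of 0.05.

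Vegfa is a classic target of hypoxia-inducible factors, whose genes and targets had list medians near 0. For the factors and their regulators (13 genes, 8 higher, 5 lower) the median was 0.07. Over all genes 47.2% were higher and 45.5% lower. At least 1.2-fold higher was 1 of the 13 (all genes 11.2%), and at least 1.2-fold lower were 2 (all genes 10.5%). Epas1, which encodes an oxygen-sensitive alpha subunit, had 8.56 in DMEM/F12 and 8.09 in DMEM, a difference of 0.47. Hif1an, which encodes an inhibitor of the alpha subunits, differed by -0.32 (5.69 in DMEM/F12, 6.01 in DMEM), and Siah2, a ubiquitin ligase, by 0.25 (6.32 in DMEM/F12, 6.07 in DMEM). The 15 hypoxia-inducible genes (6 higher, 9 lower) had a median of -0.10. Of these 15 genes 0 were at least 1.2-fold higher (all genes 11.2%) and 1 at least 1.2-fold lower (all genes 10.5%). The largest differences among those above background were in Bnip3, a mitophagy receptor gene (-0.30), Aldoc, an aldolase gene (0.23), and Ddit4, an inhibitor of mTOR signalling (-0.19). Vegfa, with 0.11, lay within the range of this list.

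**Figure D3:**
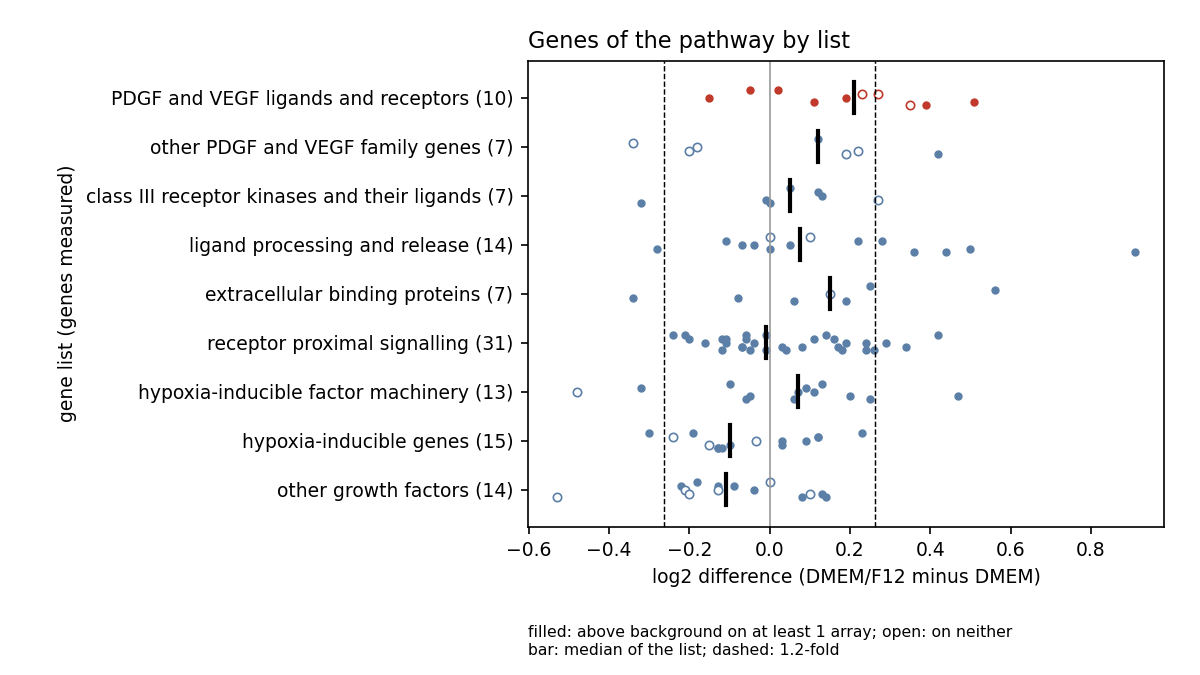
Difference in log2 value, DMEM/F12 minus DMEM (x axis), for the genes in the PDGF and VEGF set (red, top row) and in 8 lists of related genes (blue), with numbers of measured genes in parentheses. Filled dots are genes above background on at least 1 array, open dots on neither, black bars are list medians and dashed lines mark 1.2-fold. The median lies at 0.21 for the PDGF and VEGF genes and at -0.01 for receptor proximal signalling, and the dot farthest to the right is Plau (0.91).

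Scaling the arrays in other ways moved the 10 differences by at most 0.025. Under median centring, quantile normalization and subtraction of a loess curve, Pdgfb stayed between 0.49 and 0.52 and Pdgfa between 0.37 and 0.41. Once dim values were set to the background level, the differences of Pdgfd, Pdgfrb and Vegfc became 0.02 each, and the count at 1.2-fold or more was 2, Pdgfa and Pdgfb.

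**Figure D4:**
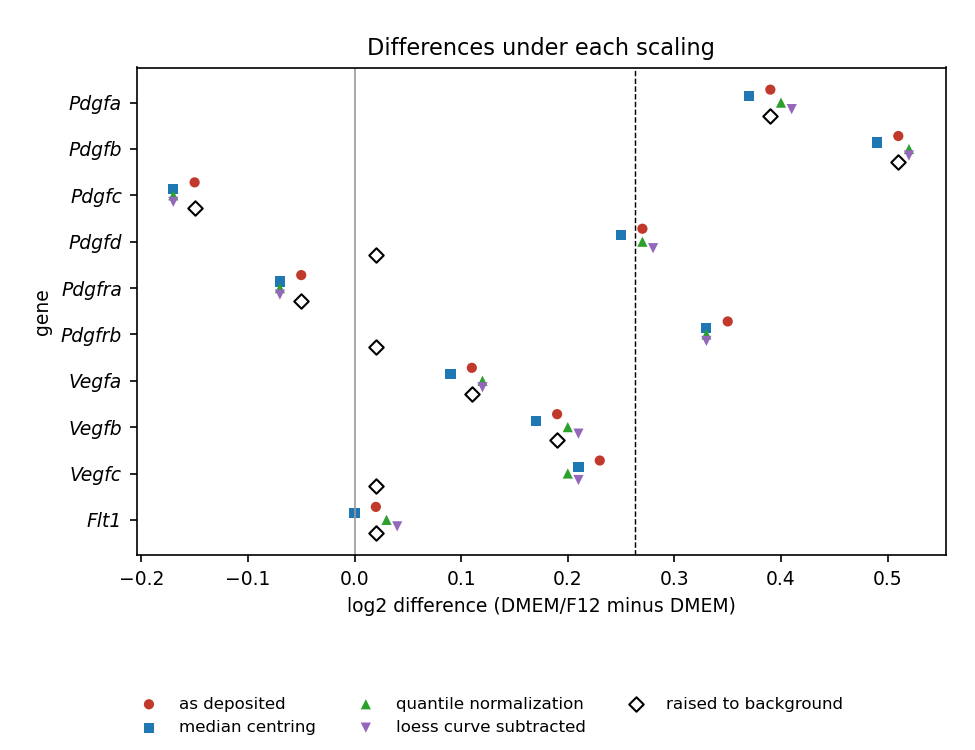
Difference in log2 value, DMEM/F12 minus DMEM (x axis), for the 10 genes (y axis) with the values as deposited (red circles), under 3 scalings, and with dim values raised to background (open diamonds). The dashed line marks 1.2-fold. The symbols of Pdgfb (0.49 to 0.52) and Pdgfa (0.37 to 0.41) stay together, whereas the diamonds of Pdgfd, Pdgfrb and Vegfc lie at 0.02.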

How the data were processed

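RNA of BV2 cells in DMEM/F12 and in DMEM was measured on 1 Affymetrix Mouse Gene 1.0 ST array each. The values deposited by the authors are on the log2 scale and cover 28944 transcript clusters. Per the submitters' notes they came from the programs Affymetrix Expression Console and, from the same maker, Transcriptome Analysis Console. Program versions, summarization, normalization and genome build were not stated in the sources read. Samples were grouped by the submitters' labels. Of the clusters 21789 had exactly 1 gene symbol, 1621 several and 5534 none. Genes with several clusters (999 of 19938) took the mean, and all 10 PDGF and VEGF genes had 1. A gene with several clusters counted as above background when any of them was, even where its mean lay below. No further scaling was applied. The labels give an incubation of over 1 day, the methods 1 day after the medium change.

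The 10 genes, the related lists and the 1.2-fold threshold were chosen with earlier results of these data known. All 10 genes and 7 relatives are named, for each other pathway list the 3 that differed most among those above background, and for the marker lists the defining markers Csf1r, Itgam, Aif1, Pecam1, Cdh5, Cspg4, Col1a1 and Sox10. Trem2, Itgb2, Vwf, Cldn5, Olig2, Pcsk5, Pcsk6, Pcsk7 and Hgf were picked after their values were seen. With 1 array per medium no test was run, and the number of arrays limits the precision. Alternatives were 3 scalings (median centring, quantile normalization, loess with span 0.3), values below background raised to it, the brightest cluster per gene, clusters with several symbols, other background percentiles (90 and 99) and folds (1.5 and 2). The counting of genes past a fold was checked on simulated arrays with planted changes of 1.5-fold and 2-fold. Their noise was far smaller than the spread of the real differences (SD of 0.23 over all genes). That check covers the counting code only and gives no error rate for these arrays. Python 3.11.15, numpy 2.4.6, pandas 2.3.3, statsmodels 0.14.6 and matplotlib 3.10.9 were used.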

Additional observations from a re-analysis of the deposited data

How the results depend on the processing

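No paired analysis was possible because there was 1 array per medium, and for the same reason no array could be left out. Shifts of at least 0.1 (log2) in a value, or of over 1.5 times in a count, were taken as changes. The 4 genes at least 1.2-fold higher became 2 with values below background raised to it or with only genes above background, 0 at 1.5-fold and 0 at 2-fold. Median centring left 3, since Pdgfd then differed by 0.25. The median difference of 0.21 became 0.02 with values raised to background and 0.11 over the genes above background alone. With values raised, Pdgfd, Pdgfrb and Vegfc also became 0.02 each, because both of their values are below it. None of the tried settings turned the direction of a difference of 1.2-fold or more, which says little. The scalings moved the 10 differences by at most 0.025. For Pdgfd and Pdgfrb the value of 0.02 reflects only the background levels of the arrays (4.17 in DMEM/F12, 4.15 in DMEM). With the 90th percentile as background 8 genes were above it, with the 99th 5. Taking the brightest cluster per gene could not change the 10 differences, since each gene has only 1 cluster. Adding clusters with several symbols left all 10 differences as they were.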

Other observations

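Growth factor genes outside the PDGF and VEGF families were measured for 14 of 16 genes. A higher value in DMEM/F12 was seen for 4 of the 14 and a lower one for 9, against 47.2% and 45.5% of all genes. The median difference was -0.11. Only 8 of the 14 lay above background, 3 with the higher value in DMEM/F12 and 5 with the higher value in DMEM. Those 8 genes had a median difference of -0.065. Tgfb1, a regulator of microglial homeostasis, had 9.27 in DMEM/F12 and 9.13 in DMEM. Fgf1 had 4.22 in DMEM/F12 and 4.44 in DMEM. Ereg, an epidermal growth factor receptor ligand, had 4.07 in DMEM/F12 and 4.25 in DMEM, above background in DMEM alone. None of the 14 genes was at least 1.2-fold higher, against 11.2% of all genes, and 1 was at least 1.2-fold lower, against 10.5%. That gene is Hgf, picked after its value was seen, with 3.14 in DMEM/F12 and 3.67 in DMEM, both below background.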
